A study of Mus musculus with 19 samples.

Results

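The cytoplasmic ribosomal proteins were followed in mouse cells sorted for a fluorescent reporter, from the neural crest to the newborn sciatic nerve. They were taken as all probe sets of the array whose one annotated symbol begins with Rpl or Rps and a digit, or is Rplp0, Rplp1 or Rplp2, without the Rps6k kinases and the mitochondrial Mrp genes. That choice used names alone and gave 48 probe sets for 34 genes, of 12488 probe sets on the array. Another 39 probe sets carry a ribosomal protein symbol beside others and cannot be given to 1 gene. They are described as an unnamed set.

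The reporter, green fluorescent protein, was a transgene driven by a glial promoter in crest stem cells and in the glia that follow, in all groups alike, so the sort sets which cells were measured. Trunk was dissected at E9.5 (3 arrays), and sciatic nerve at E12, E14, E18 and P0, the day of birth (3 arrays each), and at E16 (4 arrays), 19 arrays in all. The E9.5 group thus differs from the others in tissue as well as in age, and these cannot be told apart. The labels name no strain and do not say whether arrays of a stage came from separate litters, so each p-value measures only the spread between these arrays, which may be technical. Each array also carries a lot number of 1 to 4. The glial markers Sox10 (102856_at) and Erbb3 (96771_at) lay at indices of 727 to 3256 and of 1589 to 5097 across all arrays. Another probe set of each was dim, at 169 to 454 (Sox10) and 85.7 to 173 (Erbb3). Other genes in a list of 16 glial genes moved in both directions. Fabp7 read 4270 to 5376 at E12 and 85.6 to 404 at P0. By limma, 5 of the 18 glial probe sets tested were higher and 3 lower at P0 than at E12, beside 4.53% and 11.8% of all. Over a list of 13 fibroblast genes, the summed index ran from 4562 to 5401 at E9.5 and from 34934 to 43788 at E16. That sum does not describe each gene of the list. In the test described below, 8 of its 20 probe sets were higher and 4 lower at P0 than at E9.5. The median change was 0.22 (log2), and 12.1% and 15.9% of all probe sets were higher and lower. A like sum over macrophage genes ran from 3777 to 7808 at E12 and from 2095 to 2405 at P0. In a bulk sort, fewer cells of a type and less RNA per cell cannot be told apart.

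Ribosomal proteins and ribosomal RNA make up the subunits on which all cytoplasmic protein is made: the large subunit joins amino acids, and the small subunit reads the messenger RNA. Their messenger RNAs are among the most abundant of growing cells. Most of them open with a run of pyrimidines at the transcription start, the 5′ terminal oligopyrimidine tract, through which the mTOR pathway with the protein Larp1 governs their translation. Assembly of the subunits begins in the nucleolus, around ribosomal RNA made by RNA polymerase I, and needs many assembly factors that are not part of the finished ribosome. Myc family factors are known to drive genes of this programme.

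That start-site feature could be looked for in 27 of the 34 genes, which have 36 annotated start windows between them in the RefSeq table (build GRCm38.p6). A run of at least 8 C or T bases on the transcribed strand that took in a base within 2 of the start was found in 9 of the 36 windows (25%, 9 genes) and in 6.78% of all 32851 windows. The reverse composition, a run of at least 8 A or G bases, was found in 5.56% of member windows and in 7.9% of all. Within 250 bases before to 50 bases after the start, on either strand, CCGGAAG occurred in 30.6% of member windows and 8.86% of all. AAGATGGC occurred in 19.4% and 2.75%, and TATAAA in 11.1% and 13.6%. These are matches of letters to annotated starts, not sites or starts measured in these cells. The 9 windows with a C and T run are shown because the run is the known mark of this class of messages, although most member windows lack one of that length at the annotated start. Rplp0 and Rpl41, which lack one here, follow for contrast. Each sequence is 30 bases of the transcribed strand, 5′ to 3′, with the annotated start at base 16. Where there is one, the longest run of C and T that took in a base within 2 of the start is in capitals. The Rpl13a run, of 14 bases, continues past the printed end, and the Rpl19 run ends just before the annotated start.
Rpl13a, chr7:45128731-45128760, minus strand: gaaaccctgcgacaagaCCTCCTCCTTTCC
Rpl19, chr11:98026909-98026938, plus strand: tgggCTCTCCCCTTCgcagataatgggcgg
Rpl35a, chr16:33056467-33056496, plus strand: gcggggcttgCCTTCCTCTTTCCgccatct
Rpl38, chr11:114668565-114668594, plus strand: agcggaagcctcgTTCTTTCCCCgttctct
Rpl7a, chr2:26910792-26910821, plus strand: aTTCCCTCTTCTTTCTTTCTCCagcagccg
Rps10, chr17:27635230-27635259, minus strand: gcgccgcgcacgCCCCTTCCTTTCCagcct
Rps18, chr17:33955651-33955680, minus strand: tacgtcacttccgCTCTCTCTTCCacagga
Rps24, chr14:24490663-24490692, plus strand: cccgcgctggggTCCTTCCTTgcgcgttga
Rps27, chr3:90213634-90213663, minus strand: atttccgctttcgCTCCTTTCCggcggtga
Rpl41, chr10:128549154-128549183, minus strand: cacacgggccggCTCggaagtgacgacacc
Rplp0, chr5:115559452-115559481, plus strand: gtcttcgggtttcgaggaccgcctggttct

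On the arrays the family was bright and changed little with stage. The authors' values are expression indices, 1 per probe set and array on a linear intensity scale. Here they were raised to a floor of 68.5, the 25th percentile of all values, and put on a log2 scale. Of the 48 member probe sets, 34 lay above the floor on all 19 arrays, 5 on none, and 23 (21 genes) ranked among the top 10% of probe sets on the arrays on average. The mean log2 level over the 48 was 9.60 ± 0.13 (SD, n = 3) at E9.5, 9.61 ± 0.02 (n = 3) at E12, 9.53 ± 0.11 (n = 3) at E14, 9.36 ± 0.11 (n = 4) at E16, 9.5 ± 0.06 (n = 3) at E18 and 9.55 ± 0.18 (n = 3) at P0. E16 was the lowest stage and E12 the highest, and the means of E9.5 and P0 lay within each other's SD. As a share of all signal on the array, the 48 probe sets together took from 2.01% at E16 to 2.43% at P0, as stage means.

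Among the large subunit proteins, 16 of 19 probe sets could be tested, which here means above the floor on at least 3 arrays. Rpl8, which lies close to the peptidyl transferase centre, kept within 4447 to 6315 on all 19 arrays, with a range of stage means of 0.25 (log2). For Rpl7a the limits were 3853 and 6554, and the range of stage means was again 0.25. Rpl41, the smallest ribosomal protein, ran from 6616 at E14 replicate 3 to 11006 at E9.5 replicate 3, with a range of stage means of 0.29. Rpl6 and the bright Rpl7 probe set (97695_s_at) spanned 0.44 and 0.49. The stage means of each of these 5 proteins thus lay within 2-fold of each other. More movement was seen in Rpl10a, the protein tagged in ribosome affinity methods, in Rpl37a, a small zinc-binding protein, and in Rpl13a, a large subunit protein that also takes part in interferon-induced silencing of messenger RNAs. Their ranges of stage means were 1.33 (Rpl10a, 100711_at), 1.37 and 1.70. Rplp0, the base of the stalk that recruits translation factors, had an index of 6525 to 10131 and a range of stage means of 0.18, the smallest among the 23 bright probe sets.

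Among the small subunit proteins, 20 of 23 probe sets could be tested. Rps3, which lies at the entry of the messenger RNA channel, had indices of 7104, 7901 and 8243 at E9.5 and between 5103 and 7495 in the nerve. Its stage means spanned 0.40. For Rps24 (97696_r_at), mutated in some Diamond-Blackfan anaemias like Rps19 and Rpl35a, the index ran from 7876 to 10782 with a spread within stages of 0.12. The annotation gives that probe set the same source sequence as the Rpl7 probe set 97695_s_at. The other Rps24 probe set (93121_at) read 102 to 177, so the bright signal may not be that of Rps24. Rps19 ran from 4366 to 7690, and Rps7, known to bind the p53 regulator Mdm2, from 2690 to 4290, both with their low values on arrays of E16 or P0. The largest spread within stages, 0.62, belonged to Rps10, whose 4 values at E16 were 2016, 3638, 1052 and 4845. Such a gap between arrays of 1 stage exceeds every difference between stage means of the other bright small subunit probe sets.

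Some paralogs also match the naming rule. Rps27l, a p53-responsive relative of Rps27, ranged from 1210 to 3159 with no stage apart from the rest. Rpl7l1, a nucleolar relative of Rpl7, had indices of up to 473 and a mean of 364 at E9.5, and of 130.0, 277 and 295 with a mean of 234 at P0, a difference of -0.70 (log2, SE 0.31) that did not pass the test (limma, adjusted p = 0.11). Those P0 values fell below all the E9.5 values. One Rps4l probe set (98149_s_at) differed by -0.83 (SE 0.35) over the same stages, also short of the threshold (limma, adjusted p = 0.094), with overlapping arrays. Rpl39l, a relative of the exit tunnel protein Rpl39 known from testis, stayed below the floor on all 19 arrays.

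Agreement between arrays of 1 stage was somewhat closer for the family than for the array as a whole. The median spread within stages was 0.25 (log2 SD) over the 41 members tested and 0.31 over all 10414 probe sets tested. For the range of stage means the medians were 0.44 and 0.68. A range under 1, that is under 2-fold, was found in 36 of the 41 members (87.8%) and in 69.1% of all. Within the top 10% of the arrays, a range under 0.5 was found in 17 of the 23 members (73.9%) and in 20.6% of the 955 other probe sets, which were not matched to the members in brightness. The unnamed several-symbol set showed a similar pattern, with a spread of 0.24, a range of 0.47 and 80.6% under 1 over the 36 tested.

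Few members passed the test between stages. The question in each step was whether a probe set differed between adjacent stages, in a fit of all 19 arrays with limma and Benjamini-Hochberg adjustment over all 10414 probe sets (threshold 0.05). From E9.5 trunk to E12 nerve, 0 of 41 members passed, where 14.1% of all probe sets did (4.41% lower). At an unadjusted p under 0.05 there were 3 members (7.32%, beside 25.7% of all), and the lowest adjusted p was 0.057. E14 against E12 gave 0 (2.09% of all probe sets), E16 against E14 gave 0 (1.69%), E18 against E16 gave 0 (0.0768%) and P0 against E18 gave 0 (0.125%). In these 4 steps within the nerve few probe sets of any kind passed, so a count of 0 says little about the family. At the unadjusted threshold the members numbered 2 at E14 (4.88%, beside 10.9% of all), 7 at E16 (17.1%, beside 11.2%), 3 at E18 (7.32%, beside 8.07%) and 1 at P0 (2.44%, beside 11.7%). E16 against E14 was thus the only step in which the members' share stood above that of all probe sets. Many members moved together from array to array, so this is not read as a result about the family. When limma weighted the arrays by quality, the step from E9.5 to E12 called 4 members (9.76%, beside 29.2% of all). The steps within the nerve then called 2 (4.88%, beside 11.3%), 4 (9.76%, beside 8.76%), 3 (7.32%, beside 11.1%) and 2 (4.88%, beside 8.31%). In that fit the share at E16 against E14 was near the background.

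Over longer spans the family stood below the background. P0 against E12 called 2 members, Rps29 higher and Rpl13a lower, where 16.4% of all probe sets were called (4.53% higher and 11.8% lower). At the unadjusted threshold there were 4 members (9.76%, beside 29.7% of all). P0 against E9.5 called 3 members, 7.32% of those tested, where 28.0% of all probe sets were called. At the unadjusted threshold these shares were 19.5% and 38.2%. Of these members 1 was higher and 2 were lower, beside 12.1% and 15.9% of all probe sets. These comparisons share their P0 arrays. A moderated F-test for any difference among the 6 stages called 2 members, Rpl13a and Rps4x, which is 4.88% against 29.0% of all. The same test over the 5 nerve stages called 1, Rpl13a, against 13.1% of all. Counts depended on the arrays: with quality weights the test over 6 stages called 17 members, 41.5% against 62.0% of all probe sets, and without P0 replicate 1 it called 7, 17.1% against 29.9%. Over the 5 nerve stages the weighted fit called 16, 39.0% against 50.9%. In each of these settings the share of members stayed below that of all probe sets, while its size moved several-fold.

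**Figure D1:**
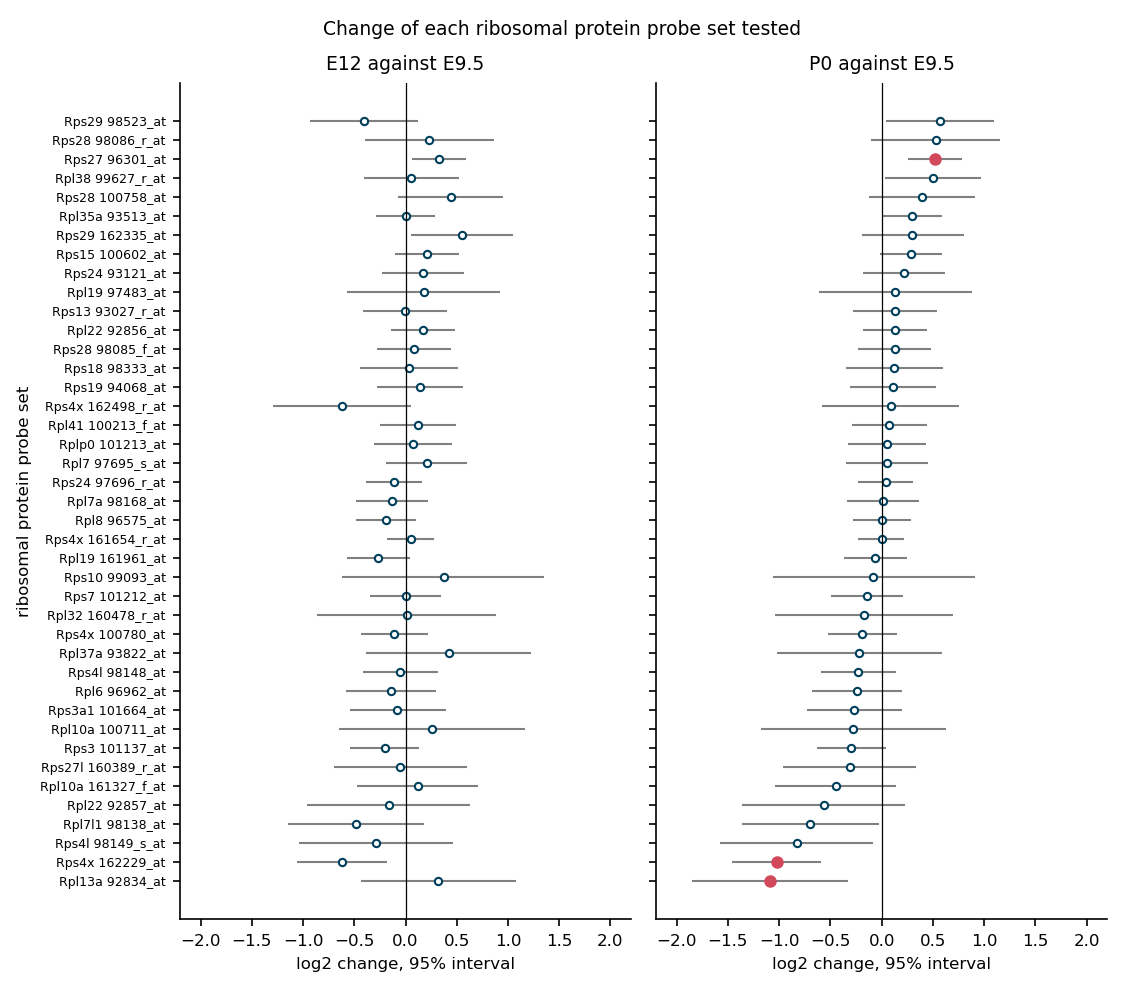
Fitted log2 change of each of the 41 ribosomal protein probe sets tested, E12 against E9.5 on the left and P0 against E9.5 on the right. Bars are 95% intervals from the limma fit of 19 arrays, and filled red points passed an adjusted p of 0.05. No probe set passed on the left, and Rpl13a and Rps4x (lower) and Rps27 (higher) passed on the right.

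An interval lying wholly within a 2-fold change in either direction says more than a p that misses the threshold. For E12 against E9.5 the 95% interval lay within 2-fold for 32 of 41 members (78.0%) and for 62.8% of all probe sets. For P0 against E9.5 it did so for 29 of 41 (70.7%) and for 55.2% of all. The median fitted change over the 41 was 0.03 and 0.01 (log2) in these comparisons, beside 0.01 and 0.03 over all probe sets. Members were thus held to small changes more often than not, with 9 and 12 left wider. The floor narrows the intervals of dim probe sets. Among the 23 bright members the interval lay within 2-fold for 19 in each comparison. Of the 955 other bright probe sets, 58.2% did so at E12 and 46.8% at P0.

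No probe set called in these tests lay among the 23 bright ones. Of the 4 genes called, Rpl13a moved most. Its indices were 1215, 1448 and 1721 at E9.5, then 2004, 2148 and 1378 at E12, and 1031, 924 and 1109 at E14. At E16 they were 376, 555, 531 and 880, at E18 918, 887 and 1287, and at P0 340.0, 846 and 1099. All arrays from E14 onward lay below all 3 arrays of E12. P0 was lower than E12 by 2.66-fold (log2 change -1.41, SE 0.36, adjusted p = 0.013 by limma) and lower than E9.5 by 2.12-fold (log2 change -1.09, SE 0.36, adjusted p = 0.032 by limma). One array carries part of this: without P0 replicate 1 the change from E12 was -0.91 (limma, adjusted p = 0.059) and that from E9.5 was -0.59 (limma, adjusted p = 0.17). Leaving out E12 replicate 2 (limma, adjusted p = 0.058 against E12), or E9.5 replicate 2 or 3 (limma, adjusted p = 0.079 and 0.11 against E9.5), also ended a call. With the 3′ to 5′ signal ratio of Gapdh, which rises as the labelled RNA shortens, as a covariate, the adjusted p (limma) was 0.11 against E12 and 0.64 against E9.5. Over all alternatives the adjusted p (limma) ran from 0.0015 to 0.11 against E12 and from 0.006 to 0.64 against E9.5. Within lots the change from E12 to P0 was -2.56 in lot 1 and -0.33 in lot 4. The direction was thus the same in both lots, with different sizes. The F-test over the nerve stages (limma, adjusted p = 0.018) was lost without E12 replicate 1 (0.071) or E12 replicate 2 (0.081).

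Rps27, a zinc finger protein of the small subunit, was higher at P0 than at E9.5 in its 1 member probe set (96301_at). That probe set was dim, at a mean percentile of 61.2 on the arrays. Its indices were 218, 253 and 233 at E9.5, 328, 276 and 281 at E12, and 330.0, 339 and 339 at P0, with the arrays of E14, E16 and E18 between 241 and 308. No P0 array overlapped with E9.5. P0 was 1.43-fold above E9.5 (log2 change 0.52, SE 0.12, adjusted p = 0.0046 by limma), by 0.60 within lot 1 and 0.54 within lot 3. The call was lost only when the 2 stages were fitted alone (limma, adjusted p = 0.11, in a range of 0.00066 to 0.11 over 21 alternatives).

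Rps29, another zinc-binding protein of the small subunit, was called with 1 of its 2 probe sets. Probe set 98523_at read 205, 291 and 314 at E12 and 584, 491 and 496 at P0, which did not overlap. P0 was 1.97-fold above E12 (log2 change 0.98, SE 0.25, adjusted p = 0.013 by limma), by 1.51 within lot 1 and 0.66 within lot 4. That call was lost without E12 replicate 1 (limma, adjusted p = 0.073), without P0 replicate 1 (limma, adjusted p = 0.052), without the lot 1 arrays of E16 and P0 (limma, adjusted p = 0.064) and with the Gapdh ratio as a covariate (limma, adjusted p = 0.063), in a range of 0.0058 to 0.073 over 20 alternatives. The brighter probe set 162335_at read 3203, 2720 and 2296 at E12 and 1518, 2542 and 3090 at P0, which overlapped. Pearson's r between both over 19 arrays was -0.05. The rise of Rps29 was therefore seen in the dimmer probe set and not in the brighter one.

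Rps4x, an X-linked protein of the small subunit, gave a like split. Probe set 162229_at read 460.0, 326 and 264 at E9.5, 218, 222 and 225 at E12, and 189, 150.0 and 166 at P0. All nerve arrays but 1, E14 replicate 1 at 292, lay below all 3 E9.5 arrays. P0 was 2.03-fold below E9.5 (log2 change -1.02, SE 0.21, adjusted p = 0.0014 by limma), a call kept under all 20 alternatives with adjusted p (limma) between 0.0008 and 0.033. The bright probe set 100780_at read 7503, 6777 and 7714 at E9.5 and 5062, 6822 and 7718 at P0, a range of stage means of 0.21. Pearson's r between both was 0.19 over the 19 arrays. The fall was thus a result about 1 dim probe set, and the probe set that carries most of the signal of Rps4x did not pass the test.

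**Figure D2:**
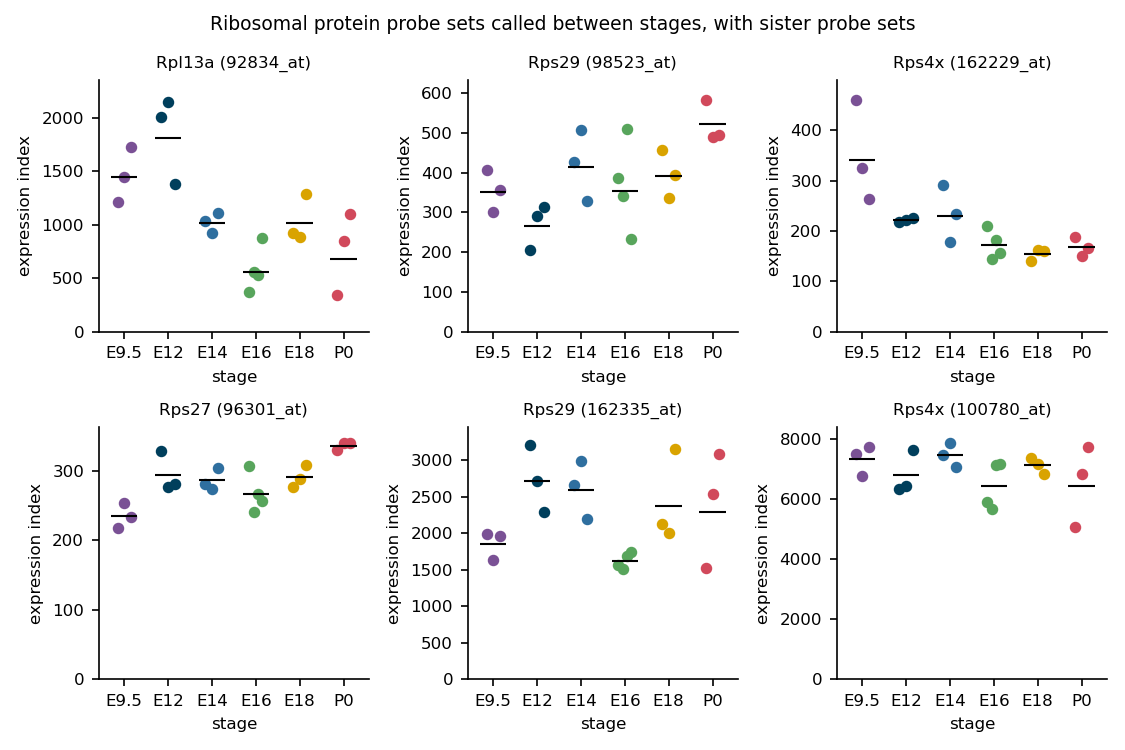
Expression index (linear scale, from 0) of the probe sets of Rpl13a, Rps27, Rps29 and Rps4x by stage. Each point is an array and each line the geometric mean of a stage. Rpl13a falls from 1378 to 2148 at E12 to 340.0 to 1099 at P0, and the paired probe sets of Rps29 and Rps4x, one above the other, follow different courses.

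Probe sets of 1 gene often disagreed elsewhere too. Of the 10 genes with several probe sets, 6 had at least 1 inside and 1 outside the top 10%. Both Rpl10a probe sets varied together (r = 0.79 over 19 arrays), as did 2 of Rps28 (r = 0.78). For Rpl19 r was 0.09, for Rpl22 -0.04 and for Rps24 -0.27. Probe set 97697_at of Rpl7 stayed at or below 28.9 on every array while 97695_s_at ran from 4312 to 8010. For Rpl39, Rps20 and Rpl38 (99626_i_at) the index never passed the floor, and for Rps14 on 1 array. A low index of such a probe set is therefore not read here as a low level of the transcript.

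What the bright members shared was their movement from array to array. The median deviation of the 23 probe sets from their own means over 19 arrays was -0.36 (log2) on E16 replicate 3, -0.35 on E16 replicate 1 and -0.32 on P0 replicate 1. Of the 23, 20, 21 and 18 lay below their own mean there. The highest medians were 0.33 on E9.5 replicate 3, 0.24 on P0 replicate 3 and 0.21 on P0 replicate 4. High and low arrays thus occurred within the same stage. Of the 23 probe sets, 16 had their lowest value on one of those 3 low arrays, as did 20 of 28 bright probe sets of the several-symbol set and 40.3% of the 955 other bright probe sets. Those 3 arrays were picked by the values of the 23, so the count of 16 is in part fixed by that choice.

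**Figure D3:**
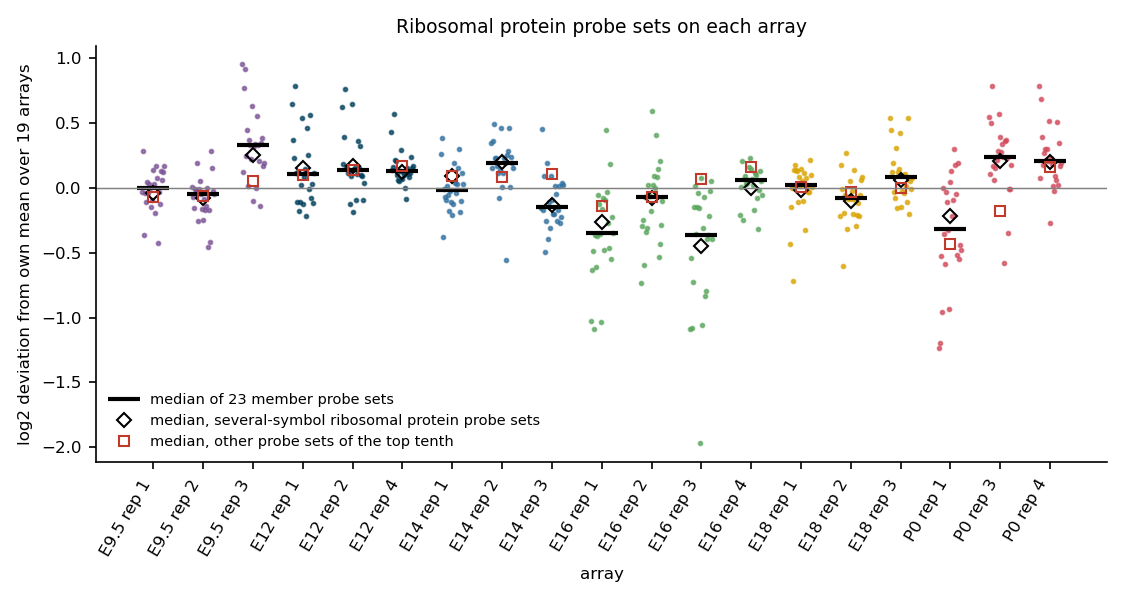
Log2 deviation of 23 bright ribosomal protein probe sets from their own mean over 19 arrays, 1 point per probe set, by array. Black bars are their medians, diamonds the medians of the several-symbol ribosomal protein probe sets and red squares those of the other probe sets of the top 10%. Bars and diamonds are low together on E16 replicates 1 and 3 and P0 replicate 1, where the red squares stand at -0.14, 0.07 and -0.43.

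The several-symbol set, which the choice of members did not use, followed the same course. Its median deviations on the 3 low arrays were -0.26 (E16 replicate 1), -0.45 (E16 replicate 3) and -0.22 (P0 replicate 1). Pearson's r between the mean of the 23 and the mean of that set was 0.99 over the 19 arrays, a description of points that share their arrays and, in part, their probes' targets. With the mean of the other bright probe sets r was 0.37, and with the log2 Gapdh ratio it was -0.32. On E16 replicate 3 the other bright probe sets deviated by 0.07, and on P0 replicate 1 by -0.43. The Gapdh ratio was 4.26 on E16 replicate 3, 5.80 on E16 replicate 1 and 7.69 on P0 replicate 1, in a range of 2.33 to 9.12, and its part in these deviations was not tested.

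Among single members the shared course was clearest in Rpl19 (97483_at) and Rps10, each with r = 0.92 against the mean of the other bright genes of the family, then in Rpl10a (100711_at, 0.91), Rps7 (0.89), Rpl37a and Rps19 (both 0.86) and Rplp0 (0.84). Rps13 (-0.16), Rps3 (-0.01) and Rps27l (0.02) did not share it. Rpl10a shows its size: the indices were 683 on P0 replicate 1 and 2344 and 2773 on the other two arrays of that stage. In all, 6 of the 23 differed by more than 1 (log2) between P0 replicates 1 and 4, by up to 2.02 in Rpl10a. Replicates 1 and 2 of E12, by contrast, differed by a median of 0.08.

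Outside the naming rule, the most similar course over the 19 arrays was that of Taf10, a subunit of the transcription complex TFIID (r = 0.92). Next came the RNA polymerase II subunit Polr2j (0.91), the splicing factor subunit Sf3b5 (0.91) and Gm15772 (0.90), whose symbol does not show whether it belongs to the family. The glycolytic enzyme Hk1 (0.90) and the proteasome subunit Psmb6 (0.89) followed. These are the highest of the probe sets with 1 symbol outside the rule and were picked as such.

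The dip of the family mean at E16 rested in part on those arrays. From E14 to E16 the median fitted change over the 41 members was -0.17, with 30 lower and 10 higher, beside a median of -0.04 over all probe sets. From E16 to E18 it was 0.13, with 30 higher and 11 lower, beside -0.01. Both steps share the E16 arrays. Of the 41 tested, 4 probe sets were lower at E16 by more than 0.80: Rpl10a (100711_at) at -0.91 (SE 0.40, adjusted p = 0.4 by limma), Rps10 at -0.88 (SE 0.43, adjusted p = 0.46 by limma), Rpl13a at -0.87 (SE 0.34, adjusted p = 0.31 by limma) and Rpl37a at -0.86 (SE 0.35, adjusted p = 0.36 by limma). Indices of Rpl37a were 1424, 2007 and 1525 at E14 and 673, 949, 864 and 1203 at E16, which did not overlap. Within lots the median from E14 to E16 was -0.19 in lot 1 and -0.08 in lot 3, and none of these differences passed the test.

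Other genes of ribosome production and translation were called more often between E9.5 trunk and P0 nerve, and their values are set beside those of the family. Of 38 probe sets of ribosome assembly factors tested, 17 fell and 0 rose from E9.5 to E12, with a median change of -0.70, and 27 fell and 0 rose from E9.5 to P0, with a median of -1.27. Both comparisons share the E9.5 arrays. Wdr43, a component of the small subunit processome, had a mean index of 741 at E9.5, 210.0 at E12 and 177 at P0 (4.05-fold lower at P0, log2 change -2.02, SE 0.34, adjusted p = 0.0003 by limma). Bysl, needed for maturation of the small subunit, fell 3.83-fold by P0 (log2 change -1.94, SE 0.38, adjusted p = 0.0011 by limma). Nop58, a core protein of the particles that methylate ribosomal RNA, fell 3.77-fold (log2 change -1.92, SE 0.54, adjusted p = 0.013 by limma). Over the same stages the median change of the 41 ribosomal protein probe sets was 0.01.

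Of 38 probe sets of translation initiation factors, 2 fell by E12 and 15 by P0, none rising, with medians of -0.34 and -0.65. Over all probe sets 4.41% were lower at E12 and 15.9% at P0, so the initiation factors at E12, and the RNA polymerase I genes given next, stood near the background at that step. Eif1ax, which helps to choose the start codon, fell 3.93-fold by P0 (log2 change -1.98, SE 0.36, adjusted p = 0.00063 by limma). Among 13 of elongation and release factors, 2 fell by E12 and 7 by P0, with medians of -0.37 and -0.78. Gspt1, the release factor eRF3, fell 3.67-fold by P0 (adjusted p = 0.00027 by limma). RNA polymerase I genes had 1 of 18 lower at E12 and 7 of 18 lower at P0, and Polr1e fell 3.51-fold by P0 (adjusted p = 2.9e-05 by limma). The proteins of the mitochondrial ribosome had 8 of 71 lower at E12, and at P0 24 lower and 1, Mrpl33, higher. The cell cycle list had 12 of 34 lower at E12, and 25 lower and 1 higher at P0, with medians of -0.62 and -1.58. All these lists had a larger share of members called at P0 against E9.5 than the 7.32% of the ribosomal proteins or the 28.0% of all probe sets. The difference between lists was not tested. Within the nerve, the F-test over the 5 stages called 4 of 38 assembly, 1 of 38 initiation, 0 of 13 elongation and 7 of 71 mitochondrial probe sets. It called 4 of 18 for RNA polymerase I and 18 of 34 for the cell cycle, beside 13.1% of all probe sets. The assembly, initiation, elongation and mitochondrial lists thus stood below the background once E9.5 was left out.

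The stages compared also differed in the Gapdh ratio, which was 2.33 to 3.41 at E9.5 and 4.69 to 7.69 at P0. With that ratio as a covariate, 18.0% of all probe sets were called at P0 against E9.5, 12.8% higher and 5.22% lower. The probe sets lower then numbered 4 of 38 for assembly factors, 0 of 38 for initiation factors, 2 of 13 for elongation factors, 2 of 18 for RNA polymerase I and 4 of 71 for the mitochondrial ribosome, and 18 of 34 for the cell cycle, to be read against those 5.22%. When P0 and E9.5 were fitted alone, 10.3% of all probe sets were lower at P0. The probe sets lower then numbered 9 for the mitochondrial ribosome, 8 for initiation factors, 4 for elongation factors and 2 for RNA polymerase I. Those of the mitochondrial ribosome and RNA polymerase I were near that background. Stage and ratio are in large part aligned in these arrays, and their parts cannot be told apart. Single arrays moved some of these counts at P0: RNA polymerase I had 3 without P0 replicate 1 and 4 without E9.5 replicate 3, elongation factors had 4 without E9.5 replicate 2 or P0 replicate 3, and initiation factors had 23 without P0 replicate 4. At E12 the cell cycle list had 6 without E12 replicate 1 and 7 without E12 replicate 2 or E9.5 replicate 2, and the mitochondrial ribosome 5 without E9.5 replicate 2 or 3 or E12 replicate 1. Initiation factors then had 0 without E12 replicate 1 and 1 without E9.5 replicate 2, and elongation factors 0 without E9.5 replicate 2 or E12 replicate 1 or 2, and 1 without E9.5 replicate 3 or E12 replicate 4. Assembly factors had 9 without E12 replicate 1 or 2, 10 without E9.5 replicate 3, and 11 without E9.5 replicate 2 or E12 replicate 4. In these runs 2.31% to 3.77% of all probe sets were lower at E12. At P0 the share lower ran from 11.5% (without E9.5 replicate 2 or P0 replicate 3) to 20.8% (without P0 replicate 4). With the Gapdh ratio as a covariate, E12 against E9.5 had 8 of 38 assembly factors and 7 of 34 cell cycle probe sets lower. The counts were 5 of 71 for the mitochondrial ribosome, 1 of 38 for initiation factors, 0 of 13 for elongation factors and 1 of 18 for RNA polymerase I. Of all probe sets 3.43% were then lower. Under the same covariate, the ribosomal proteins kept 2 calls at P0 against E9.5, Rps27 and Rps4x.

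**Figure D4:**
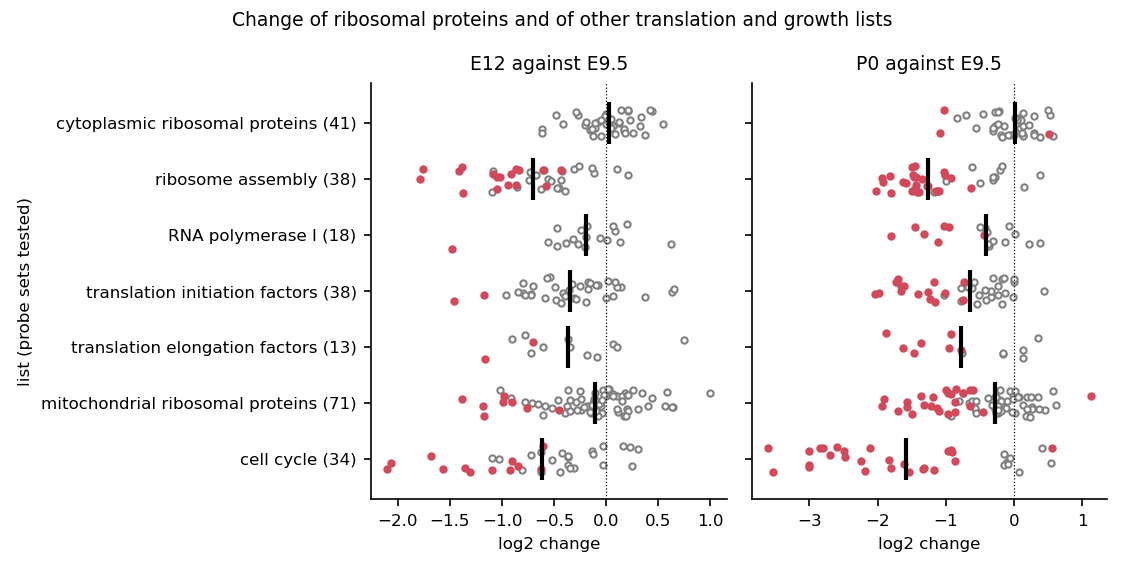
Fitted log2 change of each probe set tested in 7 lists, E12 against E9.5 on the left and P0 against E9.5 on the right. Red points passed an adjusted p of 0.05, and black bars are list medians. Cytoplasmic ribosomal proteins centre on 0.03 and 0.01, and ribosome assembly factors on -0.70 and -1.27.

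Regulators of this programme moved in both directions. Of 10 probe sets of the Myc family, 2 rose and 2 fell from E9.5 to E12, beside 9.7% higher and 4.41% lower of all probe sets. Mycn, the family member known from embryonic precursors, fell from a mean index of 1114 to 288 (3.96-fold, log2 change -1.99, SE 0.53, adjusted p = 0.019 by limma), and Mxd4, a repressor that competes for the partner Max, rose from 155 to 1383 (9.26-fold, log2 change 3.21, SE 0.38, adjusted p = 2.2e-05 by limma). At P0 against E9.5, 4 were higher and 3 lower, beside 12.1% and 15.9% of all probe sets. Myc itself was among the higher ones (log2 change 1.95, SE 0.70, adjusted p = 0.047 by limma), with 1 E9.5 array at the floor. In the mTOR and S6 kinase list, 0 of 17 passed at E12, where 14.1% of all probe sets did. At P0 against E9.5, 4 passed, 1 higher and 3 lower, a smaller share than the 28.0% of all probe sets. Of these Larp1, which binds the pyrimidine tract of these messages, was 1.74-fold lower at P0 than at E9.5 (log2 change -0.80, SE 0.23, adjusted p = 0.017 by limma).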

How the data were processed

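RNA of sorted cells was amplified by 2 rounds of in vitro transcription and hybridized to mouse Affymetrix arrays, per the labels. Each deposited value is an intensity, the model-based index of 1 probe set on 1 array: the authors normalized arrays in dChip with a smoothing spline and took probe sensitivities from 18 arrays, per the labels' descriptions, while 19 are used here. No source used here gives the version of dChip. Depth is not defined for arrays, whose number limits the precision.

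Probe sets were named through the array's annotation (10833 with 1 symbol). All 48 members had their gene identifier in the reference table. Indices were floored at the 25th percentile (68.5), put on a log2 scale and filtered (above the floor on at least 3 arrays, 10414 tested). limma 3.58.1 in R 4.3.3 was fitted with a mean per stage (13 residual degrees of freedom, 2-sided tests, Benjamini-Hochberg within each comparison). The script was tested on simulated data. The floor leaves differences of dim probe sets understated.

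The members and gene lists were chosen with earlier results of these data known. Named members were those called without overlap of arrays, those with the highest or lowest levels, the largest ranges and the extreme spreads, the paralogs, and genes with several probe sets. Other lists gave up to 3 called genes in each direction. Same-numbered arrays of different stages did not deviate together (mean r = 0.0219, lowest -0.382, over 38 pairs), nor did arrays of 1 lot (mean 0.042), so neither number was used to pair arrays.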

Additional observations from a re-analysis of the deposited data

Results flagged for a closer look

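At E16, the stage with 4 arrays, 4 of the 41 members tested had 1 array far from the other three. Chance alone marks about 1 group in 20 where values are independent, and the share over all probe sets is not given here. Rps18 and Rps28 below share their low array, so the 4 are not read as a result about the family. Rps18 had an index of 2971 on E16 replicate 3 and of 5848, 6272 and 6476 on the rest. Rps28 (100758_at) had 3095 on E16 replicate 3 and 5266, 5702 and 5744 on the rest. Rpl7 (97695_s_at) was highest on E16 replicate 4, with 6608 against 5019, 5051 and 5229. Rpl35a was highest on E16 replicate 2, with 84.0 against the floor of 68.5 on the others. The floor sets that last gap: without it, the gap took up 0.62 of the range, under the limit used here.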

How the results depend on the processing

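No called change reversed under any alternative run, and counts of member calls moved most with array weights or without single P0 arrays. With array weights 4, 2, 4, 3 and 2 members were called in the adjacent steps (29.2%, 11.3%, 8.76%, 11.1% and 8.31% of all probe sets), 5 for P0 against E12 (28.0%), 7 for P0 against E9.5 (33.3%), 17 for any of the 6 stages (62.0%) and 16 for the 5 nerve stages (50.9%). E12 against E9.5 called 1 member with a floor at the 40th percentile, with quantile normalization, with median centring and with no filter. P0 against E12 called 0 with the Gapdh ratio, and 1 with the 2 stages alone, with 1 probe set per gene or without the lot 1 arrays of E16 and P0. P0 against E9.5 called 1 with the 2 stages alone. Any of the 6 stages called 5 with quantile normalization, 1 with the Gapdh ratio and 1 with 1 probe set per gene, and the 5 nerve stages called 0 with the Gapdh ratio, and 2 with lots as a block or without the lot 1 arrays. The replicate number as a block gave 4 calls for the 6 stages and 2 for the nerve stages, and P0 against E9.5 then called 4. The block moved no count in the other comparisons. Leaving out 1 array at a time gave 0 to 1 calls for E12 against E9.5 (1 without E9.5 replicate 3), 0 to 5 for P0 against E12 (0 without P0 replicate 1, 5 without P0 replicate 4, 1 without E12 replicate 1 or 2), 2 to 8 for P0 against E9.5 (8 without P0 replicate 4, beside 33.2% of all probe sets), 2 to 7 for the 6 stages (7 without P0 replicate 1, 4 without P0 replicate 4) and 0 to 4 for the nerve stages (4 without P0 replicate 1, 0 without E12 replicate 1 or 2). Member medians moved to 0.08 (P0 against E12) and 0.13 (P0 against E9.5) without the lot 1 arrays, and to 0.12 (P0 against E9.5) with array weights. One array left out at a time gave -0.12 to 0.08 and -0.05 to 0.13, both highest without P0 replicate 1. Stage means with a floor at the 10th percentile were 9.42, 9.45, 9.36, 9.19 and 9.34 from E9.5 to E18. With a floor at the 40th percentile they were 9.84, 9.84, 9.77, 9.60, 9.74 and 9.77. Without a floor, as log2 of the index plus 32, E12 was 9.70 and E18 9.58, and quantile normalization gave 9.59 at E12. The cause of these moves was not tested, except that a floor sets the level of dim probe sets by construction. Fitting the 2 stages alone took the counts lower at P0 against E9.5 from 24 to 9 for the mitochondrial ribosome and 15 to 8 for initiation factors. For elongation factors they went from 7 to 4 and for RNA polymerase I from 7 to 2. The share of all probe sets lower went from 15.9% to 10.3%. Counts of assembly factors, under settings added after seeing the data, ranged from 4 to 30 lower at P0 against E9.5 and from 8 to 23 at E12 against E9.5. Of all probe sets, 5.22% and 20.8% were lower in the settings of the 4 and the 30. In those of the 8 and the 23 the shares were 3.43% and 11.3%.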
